A study of Mus musculus with 9 samples.

Results

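The Cyp4 genes encode cytochrome P450 enzymes that hydroxylate the terminal (omega) carbon of fatty acids and related lipids. The set examined here comprised 9 mouse genes, namely Cyp4a10, Cyp4a12a, Cyp4a12b, Cyp4a14, Cyp4a31, Cyp4f13, Cyp4f14, Cyp4f15 and Cyp4v3. Members were taken as all non-control probes whose RefSeq accession maps to 1 of these symbols, a rule that uses no measured value. They were represented by 13 of the 55681 distinct probes on the array, against 20972 named genes in all. Cyp4a10 and Cyp4a31 had 3 probes each and the other members had 1 each. All 13 probes were well above background on all 9 arrays and passed the filter on dim probes, none of their spots carried an outlier flag, and no spot was saturated.

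Omega-hydroxylation is a minor route of fatty acid breakdown beside mitochondrial and peroxisomal beta-oxidation. The electrons come from P450 oxidoreductase (Por), the hydroxylated product is oxidised by alcohol and aldehyde dehydrogenases to a dicarboxylic acid, and this is activated and shortened in peroxisomes. In liver, Cyp4a10 and Cyp4a14 are classical targets of the lipid-sensing nuclear receptor PPAR-alpha and rise in fasting and in streptozotocin diabetes. Cyp4a12a and Cyp4a12b are male-biased enzymes that depend on androgen and growth hormone and make the signalling lipid 20-HETE from arachidonic acid. Cyp4f enzymes act on leukotrienes and very long-chain fatty acids, and Cyp4v3 is the mouse counterpart of human CYP4V2, the gene of Bietti crystalline dystrophy.

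The data were 9 one-colour Agilent arrays of liver RNA from 9 male mice killed at 20 weeks of age, 3 in each of 3 groups. The STAM mouse is a model of steatohepatitis and liver cancer with diabetes, made by low-dose streptozotocin, a beta cell toxin, given to newborn male C57B/6 J mice and by a high-fat diet after weaning. STAM-NON mice were left without treatment, STAM-INS mice received insulin by repeated subcutaneous injection, and Normal mice had neither streptozotocin nor the high-fat diet. Streptozotocin and diet therefore cannot be told apart, and whether the liver pieces held tumour tissue is not given in the sources used here. Levels are given as log2 signal relative to the 75th percentile of the same array, so a level compares 1 probe between arrays and not one gene with another.

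Per array, 46.2% to 65.0% of non-control spots were well above background, and arrays of a group correlated with each other at r of 0.979 or more over the 26278 probes tested. All 6 STAM arrays lay on one slide and the 3 Normal arrays on another, so that the slide cannot be told apart from the difference between STAM and Normal. The median over all tested probes was -0.13 for STAM-NON minus Normal, between -0.29 and 0.18 under the other scalings, and the member differences below are to be read against that shift. In whole liver, fewer cells of a type and less RNA per cell cannot be told apart.

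All 9 genes had their highest group mean in Normal liver. In STAM-NON, Cyp4f13 and Cyp4v3 fell below Normal, and in STAM-INS, Cyp4f13, Cyp4f15 and Cyp4v3 did. None of these calls held in every alternative fit. With the replicate number as a block, Cyp4f13 in STAM-NON alone passed, beside 2016 and 1872 of all probes in STAM-NON and STAM-INS. With the slide row as a block 0 members passed in either comparison, beside 15 and 2157 of all probes. The row block decides little for STAM-NON, since only STAM-INS lay in both rows. Insulin-treated and untreated STAM livers differed at no member by the test over all probes. In STAM-NON against Normal, 2 of the 13 probes passed an adjusted p of 0.05 (limma, Benjamini-Hochberg over all 26278 probes), both lower, where 16.1% of all probes passed in either direction and 9.76% passed as lower. At an unadjusted p of 0.05 the count was 6 of 13, against 35.8% of all probes. In STAM-INS against Normal, 3 of 13 passed, all lower, where 13.9% of all probes passed in either direction and 8.72% as lower, and 11 of 13 passed unadjusted, against 32.5%. In STAM-INS against STAM-NON, 0 of 13 passed, with an adjusted or an unadjusted p, where 0.0913% of all probes passed adjusted and 8.78% unadjusted. By the methods' t-test 0 of 13 passed as well, where 1498 of all probes passed unadjusted and 1 after Benjamini-Hochberg. The counts of adjusted calls against Normal lie near the background at this number of probes and are not particular to the members.

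In STAM-INS against Normal, 12 of the 13 probes were lower on every STAM-INS array than on every Normal array, where 29.0% of all probes were, and only Cyp4f14 overlapped, with 6 of the 12 being probes of Cyp4a10 and Cyp4a31. Counted once per gene this was 8 of 9. In STAM-NON against Normal, 6 of 13 probes and 6 of 9 genes were lower without overlap, where 28.0% of all probes were, and no member separated STAM-INS from STAM-NON, where 4.92% of all probes were lower without overlap. The adjusted p-values of STAM-INS against Normal depended on which arrays set the spread. With STAM-NON left out of the fit, the same 12 probes passed, at adjusted p between 0.00409 and 0.0318 (limma). In that fit 5194 of all 26278 tested probes passed, against 3647 in the main fit. The median difference over the 9 genes was -0.97 in STAM-NON and -1.52 in STAM-INS against Normal, beside -0.13 and -0.09 over all probes.

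**Figure D1:**
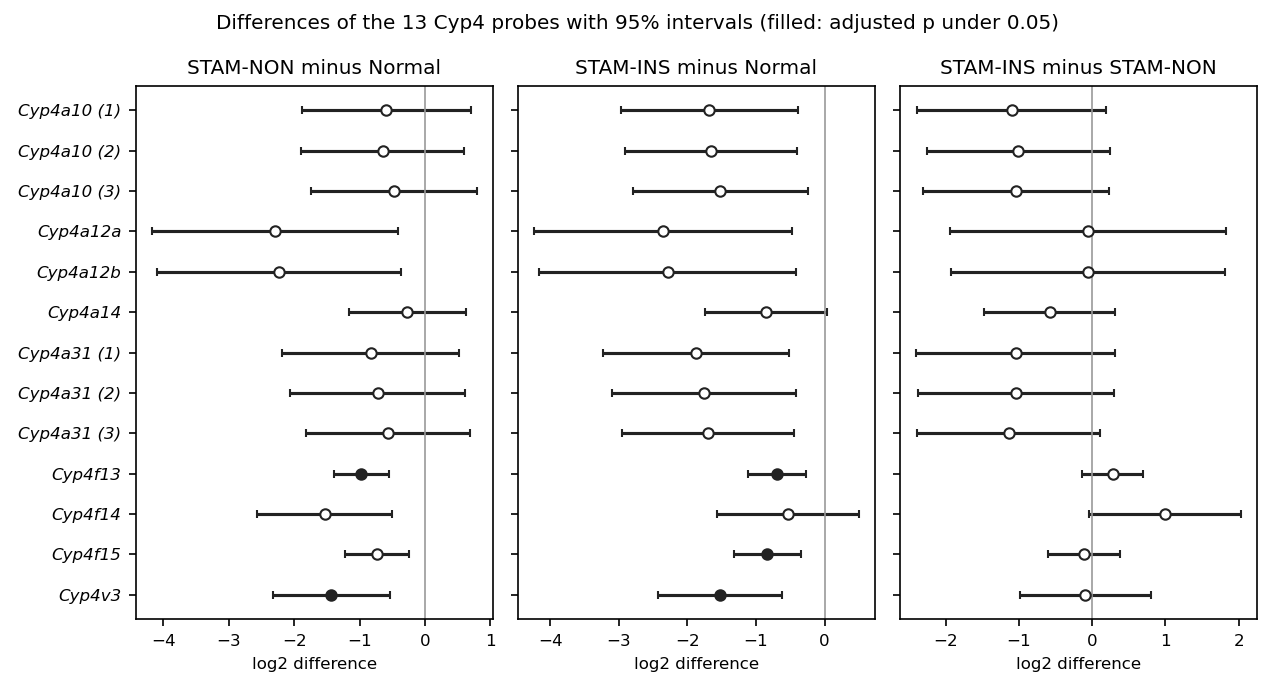
Log2 difference of each of the 13 Cyp4 probes in the 3 comparisons, with the 95% interval of the limma fit; numbers in brackets tell probes of one gene apart, and filled points passed an adjusted p of 0.05. Every point against Normal lies below 0, and the intervals of Cyp4a10, Cyp4a12a, Cyp4a12b and Cyp4a31 are the widest.

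The PPAR-alpha responsive members Cyp4a10, Cyp4a31 and Cyp4a14 were low on all STAM-INS arrays and on 1 of the 3 STAM-NON arrays. The main probe of Cyp4a10 (the probe with the highest mean) measured 8.58, 8.22 and 8.46 in Normal, 8.82, 8.41 and 6.27 in STAM-NON, and 6.68, 6.57 and 6.97 in STAM-INS. STAM-NON replicates 1 and 2 thus lay within or above the Normal range, while replicate 3 lay below every STAM-INS array. Cyp4a31, a close paralogue, measured 8.35, 8.04 and 8.25 in Normal, 8.60, 8.22 and 6.13 in STAM-NON, and 6.51, 6.29 and 6.73 in STAM-INS by its main probe. The 6 probes of these 2 genes moved as one: relative to the Normal mean they spanned at most 0.45 on any array. Cyp4a10 and Cyp4a31 lie close together in a cluster with Cyp4a32, and probe sequences were not used here, so how far each probe reads only its own gene was not tested.

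Against Normal, the 6 probes differed by -0.83 to -0.48 in STAM-NON (SE 0.55 to 0.59, adjusted p between 0.339 and 0.556, limma) and by -1.87 to -1.52 in STAM-INS (adjusted p between 0.0689 and 0.100). STAM-INS minus STAM-NON was -1.14 to -1.0 (adjusted p between 0.594 and 0.644). Among STAM-NON arrays, replicate 3 had the highest summed signal of neutrophil, lymphocyte, endothelial and adipose markers. Its sum of general hepatocyte markers, 6750, was close to the 6680 of replicate 2. Replicate 3 also had the lowest sums of both pericentral and periportal hepatocyte markers, and the part of these cell types was not tested. STAM-NON replicate 3 changed these values most. Without it, STAM-INS minus STAM-NON was -1.90 to -1.76 for the 6 probes, at adjusted p between 0.0201 and 0.0424 (limma). All 6, which share one profile, passed in that fit, where 57 of all 26278 probes passed, against 24 in the main fit. STAM-NON minus Normal became -0.02 to 0.28. Without STAM-NON replicate 1, STAM-INS minus STAM-NON shrank to -0.66 to -0.49 for the 6 probes, and 0 passed, where 16 of all probes did. Within the slide row that held the 3 STAM-NON arrays and STAM-INS replicate 1, the difference of that array from the STAM-NON mean was -1.16 for Cyp4a10 and -1.14 for Cyp4a31.

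Cyp4a14, which shares the PPAR-alpha response, measured 9.29, 8.63 and 9.10 in Normal, 9.15, 9.34 and 7.73 in STAM-NON, and 8.10, 8.02 and 8.35 in STAM-INS. The pattern was that of Cyp4a10 at a smaller size, with all STAM-INS arrays below all Normal arrays. The difference from Normal was -0.85 in STAM-INS (SE 0.39, adjusted p = 0.170, limma) and -0.27 in STAM-NON (adjusted p = 0.641). The latter turned to 0.03 under quantile normalisation and 0.04 under spike-in centring, and to 0.23 without STAM-NON replicate 3. Within an array, the log2 ratio of Cyp4a14 to Cyp4a10 was 0.71, 0.42 and 0.64 in Normal, 0.33, 0.93 and 1.46 in STAM-NON, and 1.43, 1.45 and 1.38 in STAM-INS. The ratio was higher on every STAM-INS than on every Normal array by 0.83 (exact permutation test, two-sided, p = 0.1, the smallest that 3 against 3 allow; 0.3 after adjustment over 9 ratio tests), a difference that did not pass.

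The male-biased members Cyp4a12a and Cyp4a12b had the largest differences from Normal and the largest spread. Cyp4a12a measured 6.13, 5.76 and 6.18 in Normal, 3.87, 5.37 and 1.96 in STAM-NON, and 3.96, 2.44 and 4.61 in STAM-INS. Every STAM array was below every Normal array, and the 6 STAM arrays spanned a wide range in both groups, the lowest being STAM-NON replicate 3 and STAM-INS replicate 2. Cyp4a12b measured 6.90, 6.42 and 6.86 in Normal, 4.62, 6.15 and 2.71 in STAM-NON, and 4.71, 3.27 and 5.34 in STAM-INS. Relative to their Normal means the 2 probes differed by at most 0.12 on any array, and the genes are near-identical neighbours, so their values are not independent.

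For Cyp4a12a the difference from Normal was -2.29 in STAM-NON (SE 0.82, 95% interval -4.17 to -0.41, adjusted p = 0.0875, limma) and -2.35 in STAM-INS (interval -4.23 to -0.47, adjusted p = 0.0896), a mean 4.90-fold and 5.10-fold lower signal that did not pass the test. Single arrays moved these values: STAM-NON minus Normal was -1.40 without STAM-NON replicate 3 (adjusted p = 0.198) and -3.11 without STAM-NON replicate 2 (adjusted p = 0.0239), and STAM-INS minus Normal was -1.74 without STAM-INS replicate 2 (adjusted p = 0.250). STAM-INS minus STAM-NON was -0.06, with an interval from -1.94 to 1.82 that leaves either direction possible. Its sign turned when STAM-INS replicate 2 or STAM-NON replicate 1 or 2 was left out. It also turned with the slide row as a block, which here compares STAM-INS replicate 1 alone with STAM-NON. Measured within arrays, Cyp4a12a relative to Cyp4a14 was lower than in Normal by 2.02 in STAM-NON and by 1.50 in STAM-INS, without overlap in either (exact permutation p = 0.1 each, 0.3 adjusted).

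**Figure D2:**
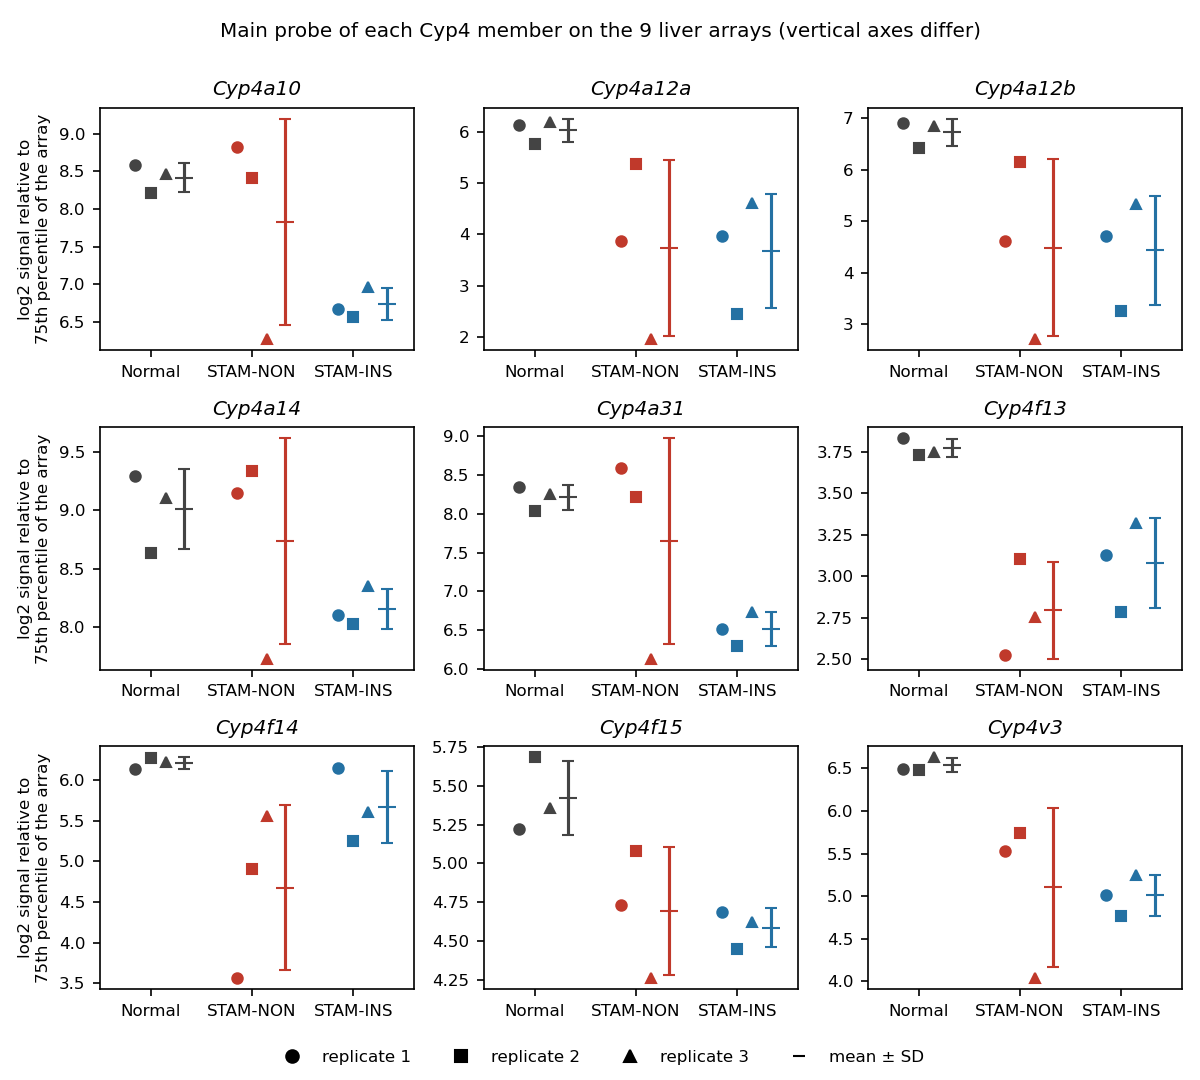
Level of the main probe of each member on the 9 arrays, as log2 signal relative to the 75th percentile of the array; symbols mark replicate numbers, bars show mean ± SD of 3 mice, and vertical axes differ between panels. STAM-NON replicate 3 (red triangle) is the lowest STAM-NON array for Cyp4a10, Cyp4a12a, Cyp4a12b, Cyp4a14, Cyp4a31, Cyp4f15 and Cyp4v3, and the highest for Cyp4f14.

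Among the Cyp4 genes along the chromosome, the 3 Cyp4f members follow one another in the order Cyp4f15, Cyp4f14, Cyp4f13. Whether genes of other families lie between them was not examined. Promoters from the RefSeq table (GRCm38.p6, 250 bases before to 50 after the start) were given for 4 members, Cyp4f13, Cyp4f14, Cyp4f15 and Cyp4v3. They are shown because the 3 members called in any comparison are among them, as bases -200 to -1 before the start, and Cyp4f14, with 4 listed starts, is shown by the first. Capitals mark the CCAAT box (CCAAT, read on either strand; here ATTGG) and the E-box (CACGTG).
Cyp4f13, chr17:32947362-32947561 (- strand): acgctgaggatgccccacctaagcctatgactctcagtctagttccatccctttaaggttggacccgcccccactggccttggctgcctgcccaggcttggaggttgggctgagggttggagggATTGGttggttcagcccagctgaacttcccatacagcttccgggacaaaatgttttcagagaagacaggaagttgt
Cyp4f14, chr17:32917357-32917556 (- strand): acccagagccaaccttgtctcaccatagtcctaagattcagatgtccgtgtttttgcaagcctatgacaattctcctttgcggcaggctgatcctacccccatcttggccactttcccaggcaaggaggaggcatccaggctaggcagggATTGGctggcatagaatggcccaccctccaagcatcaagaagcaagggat
Cyp4f15, chr17:32685459-32685658 (+ strand): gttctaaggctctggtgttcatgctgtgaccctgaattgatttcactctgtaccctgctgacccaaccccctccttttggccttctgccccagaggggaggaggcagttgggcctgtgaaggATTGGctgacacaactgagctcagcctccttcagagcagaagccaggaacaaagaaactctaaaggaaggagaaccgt
Cyp4v3, chr8:45333164-45333363 (- strand): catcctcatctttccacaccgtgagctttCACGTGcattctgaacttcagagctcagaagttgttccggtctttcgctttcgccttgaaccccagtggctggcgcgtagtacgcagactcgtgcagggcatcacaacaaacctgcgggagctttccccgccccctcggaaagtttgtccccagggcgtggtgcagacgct

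Each of the 3 Cyp4f promoters held 1 CCAAT box, all as ATTGG on the gene's strand, at -76 to -72 in Cyp4f13, at -50 to -46 in Cyp4f14 and at -78 to -74 in Cyp4f15. Of all 32851 promoter windows of the table, 37.4% held CCAAT on either strand. The longer match AGCCAATC, which contains CCAAT, was found in Cyp4f14 and Cyp4f15 and in 3.84% of all windows. Cyp4v3 held no CCAAT and 1 E-box, a palindrome, at -171 to -166, and 7.15% of all windows held CACGTG. The nuclear receptor half-site AGGTCA (16.3% of windows) and the direct repeat of a pair of AGGNCA half-sites with 1 base between them (0.381%), searched on both strands, were in none of these 4 windows.

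Cyp4f13 measured 3.83, 3.73 and 3.75 in Normal, 2.53, 3.11 and 2.75 in STAM-NON, and 3.13, 2.78 and 3.32 in STAM-INS. Every STAM array was below every Normal array. It fell by 0.97 in STAM-NON (SE 0.18, adjusted p = 0.0164, limma) and by 0.69 in STAM-INS (adjusted p = 0.0416), 1.97-fold and 1.62-fold lower.

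Cyp4f14, which hydroxylates leukotriene B4, measured 6.13, 6.27 and 6.22 in Normal, 3.56, 4.91 and 5.56 in STAM-NON, and 6.15, 5.26 and 5.61 in STAM-INS. STAM-NON replicate 1 was the lowest array and replicate 3 the highest of its group, and Cyp4f14 was the only member whose STAM-INS values reached into the Normal range. STAM-NON minus Normal was -1.53 (SE 0.45, adjusted p = 0.0523, limma), and without STAM-NON replicate 3 it was -1.97 (adjusted p = 0.0370), but without STAM-NON replicate 1 it was -0.98 (adjusted p = 0.0809). STAM-INS minus STAM-NON was 0.995 (95% interval -0.04 to 2.03, adjusted p = 0.579), with 1 array out of order, STAM-NON replicate 3 above STAM-INS replicate 2. This difference was 0.44 when STAM-NON replicate 1 was left out. Relative to Cyp4a14 on the same array, Cyp4f14 was at -5.59, -4.42 and -2.17 in STAM-NON, at -1.95, -2.77 and -2.74 in STAM-INS, and at -3.16, -2.36 and -2.88 in Normal. The groups overlapped in all 3 comparisons of this ratio (exact permutation p between 0.3 and 0.4).

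Cyp4f15 measured 5.22, 5.68 and 5.36 in Normal, 4.73, 5.08 and 4.26 in STAM-NON, and 4.69, 4.45 and 4.62 in STAM-INS. All STAM arrays lay below the Normal range, and the STAM-INS values were the tighter of the 2 STAM groups. It fell by 0.84 in STAM-INS (SE 0.22, adjusted p = 0.0389, limma), while -0.73 in STAM-NON missed the threshold (adjusted p = 0.0525).

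Cyp4v3 measured 6.50, 6.48 and 6.63 in Normal, 5.53, 5.74 and 4.04 in STAM-NON, and 5.01, 4.77 and 5.25 in STAM-INS. No STAM array reached the Normal range, and STAM-NON replicate 3 was the lowest of all. It fell by 1.43 in STAM-NON (SE 0.39, adjusted p = 0.0436, limma) and by 1.52 in STAM-INS (adjusted p = 0.0388), 2.70-fold and 2.88-fold lower, and STAM-INS minus STAM-NON was -0.09 (95% interval -0.99 to 0.81). The call in STAM-NON was lost in 16 of 23 alternatives, among them leaving out STAM-NON replicate 1 (adjusted p = 0.0676) and the replicate block (0.0796). Without STAM-NON replicate 3 the fall was 0.90 (adjusted p = 0.0304).

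These calls were not stable to the choice of arrays, scaling and replicate block. The row block decides little for STAM-NON against Normal, since only STAM-INS lay in both rows. With the slide row as a block, the adjusted p in STAM-NON was 0.236 for Cyp4f13 and 0.404 for Cyp4v3, and in STAM-INS it was 0.0840, 0.0728 and 0.0859 for Cyp4f13, Cyp4f15 and Cyp4v3. With the replicate block the latter were 0.0895, 0.0640 and 0.0744. Cyp4f13 in STAM-NON passed with each STAM-NON array left out in turn. Leaving out any 1 of the Normal arrays left 0 of 13 probes called in STAM-NON and 0 in STAM-INS. Over all probes, the calls then also fell, from 4220 to between 874 and 1137 in STAM-NON and from 3647 to between 1174 and 1481 in STAM-INS. The loss is thus not particular to the members. Centring on the spike-in controls left 1 and 0 members called, beside 3186 and 2211 of all probes. Leaving out STAM-INS replicate 1 or 2 left 0 called in STAM-INS against Normal, and leaving out replicate 3 left 1. Over all probes, leaving out STAM-INS replicates 1, 2 and 3 gave 2157, 1172 and 1945 calls in that order. For STAM-INS against Normal, leaving out STAM-INS replicate 1 gives the same result as the row block, so these are not separate checks.

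**Figure D3:**
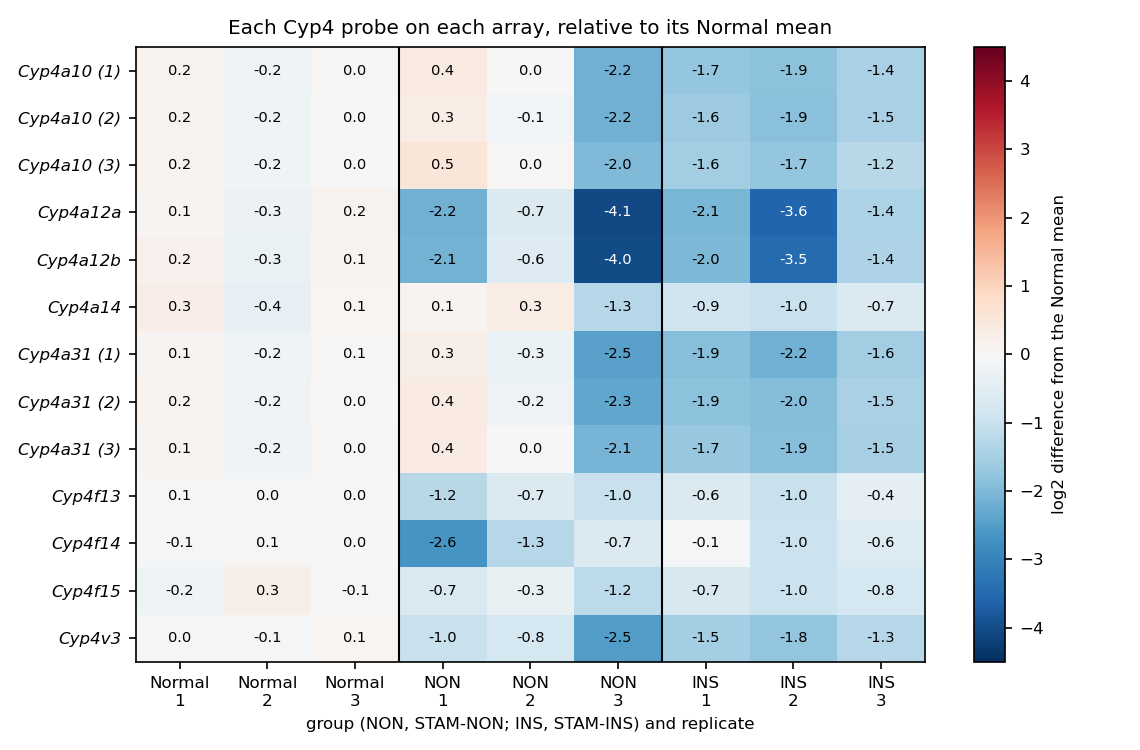
Each of the 13 probes on each array as the log2 difference from its own Normal mean (blue lower, red higher). The 6 probes of Cyp4a10 and Cyp4a31 share one profile and the 2 of Cyp4a12 another, and in Cyp4f14 the lowest array is STAM-NON 1 and not STAM-NON 3.

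Across the 9 arrays, the genes most like a member were sought among 13377 other tested genes, as a description. Cyp4a14 was most like Slc22a5, the carnitine transporter (r = 0.99), followed by Mrpl33, Chrna2, Hsdl2 and Acot1 (r between 0.97 and 0.98). Cyp4a12a was most like Mto1, Ndufb9, Mrpl30, Mocs1 and Mia2 (r = 0.99 each), and Cyp4f14 was most like Sdc2 (r = 0.98), C8b, Apoh, Agt and F5 (r = 0.97 each), of which the last 4 encode secreted plasma proteins. The 9 points share groups, slide and scaling. Among the members, r between probes ran from -0.27, for a Cyp4a10 probe and Cyp4f14, to 0.9996, for Cyp4a12a and Cyp4a12b.

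Of 11 other Cyp4 genes with a probe, 6 passed the filter on dim probes. Cyp4f16 rose by 0.996 in STAM-NON and 0.977 in STAM-INS against Normal (adjusted p = 0.0220 and 0.0225, limma). Cyp4f17 fell by 0.81 and 0.66 (adjusted p = 0.0197 and 0.0349). Cyp4f40 fell by 2.04 and 2.06 (adjusted p = 0.0243 and 0.0231, limma), but was well above background on only 1 of 3 arrays in each STAM group. It passed the filter through Normal alone, so the size of its fall is uncertain. Cyp4a32, the neighbour of Cyp4a31, had -0.64 in STAM-NON and -1.79 in STAM-INS (adjusted p = 0.462 and 0.0794), and its probe may share signal with Cyp4a10 and Cyp4a31.

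The electron donors and the enzymes after omega-hydroxylation were measured on the same arrays. Por, which feeds electrons to all microsomal P450 enzymes, fell by 0.66 in STAM-NON (adjusted p = 0.0456, limma) and by 1.97 in STAM-INS (adjusted p = 0.00185) against Normal, and STAM-INS minus STAM-NON was -1.31 (adjusted p = 0.0725). Cyb5a, another donor, fell by 0.69 in STAM-INS (adjusted p = 0.0359, limma), and 1 of 4 donors passed in STAM-NON and 2 of 4 in STAM-INS, all lower. Over all probes, 16.1% passed in STAM-NON and 13.9% in STAM-INS against Normal, and 9.76% and 8.72% passed as lower. Of 8 alcohol and aldehyde dehydrogenases, 1 rose and 2 fell in each STAM group: Aldh3b1 rose by 1.43 and 1.29, Aldh9a1 fell by 0.76 and 0.77, and Aldh3a1 fell by 0.44 and 0.63. The fatty aldehyde dehydrogenase Aldh3a2 was at 0.31 and -0.59 (adjusted p = 0.684 and 0.442, chosen after its values were seen).

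Of 21 tested genes of dicarboxylic acid activation and peroxisomal oxidation, 1 rose and 2 fell in STAM-NON against Normal, with a median of -0.35. These were Abcd2, a peroxisomal fatty acyl-CoA transporter (1.83 higher, well above background on 2 of 3 Normal arrays), the CoA diphosphatase Nudt7 (1.77 lower) and the sterol carrier Scp2 (0.52 lower). In STAM-INS, 2 rose and 1 fell, with a median of -0.54: Abcd2 rose by 1.92, Acsl5 rose by 0.54 and Nudt19 fell by 0.70. None passed between STAM-INS and STAM-NON, where the median was -0.16. The medians over all probes were -0.13, -0.09 and 0.03 in the same order of comparisons, and 16.1%, 13.9% and 0.0913% of all probes passed.

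Of 15 genes for PPAR-alpha and its partners, 0 rose and 2 fell in STAM-NON against Normal, and 1 rose and 3 fell in STAM-INS. Over all probes, 16.1% and 13.9% passed in either direction. Ppara itself was at -0.23 in STAM-NON (adjusted p = 0.385, limma) and fell by 0.86 in STAM-INS (adjusted p = 0.0229) against Normal. The coactivator Ppargc1b fell by 0.73 and 1.46 (adjusted p = 0.0419 and 0.00474), the partner receptor Rxra fell by 0.61 in STAM-NON (adjusted p = 0.0219), and in STAM-INS Nr2f2 fell by 0.59 and Ppard rose by 0.74.

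The 28 PPAR-alpha targets outside the Cyp4 family all had their lowest STAM-NON value on replicate 3, where 36.7% of all tested probes did. So did Cyp4a10, Cyp4a14 and Cyp4a31, but also Cyp4a12a, Cyp4a12b, Cyp4f15 and Cyp4v3. The medians of the electron donor, dehydrogenase, peroxisomal, pericentral and periportal lists were lowest there too. Those of the male-biased genes and general hepatocyte markers were lowest on replicate 1. The median of the 28 targets relative to Normal was 0.31, 0.02 and -0.82 on STAM-NON replicates 1 to 3 in that order and -0.70, -0.62 and -0.37 in STAM-INS. In STAM-NON against Normal 3 rose and 0 fell, with a median of -0.14, and in STAM-INS 3 rose and 3 fell, with a median of -0.58. Over all probes, 16.1% and 13.9% passed in either direction. The 3 that rose were the same in both: the hepatokine Fgf21 (3.07 and 3.40), the mitochondrial carrier Ucp3 (2.60 and 2.02) and the desaturase Fads2 (1.11 and 0.99). Those that fell were Angptl4 (-1.51), an inhibitor of lipoprotein lipase, and the acyl-CoA dehydrogenases Acadm (-0.88) and Acadl (-0.75). Between STAM-INS and STAM-NON 25 of 28 were lower in STAM-INS, where 45.1% of all probes were, and none passed. The largest differences were those of Acot2, Acot3 and Acot1, at -1.88, -1.43 and -1.17 (adjusted p between 0.518 and 0.627).

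Of 17 male-biased liver genes outside the Cyp4 family, 16 had a lower mean in each STAM group than in Normal, where 63.2% (STAM-NON) and 59.6% (STAM-INS) of all probes did. In STAM-NON 7 of 17 fell and 0 rose, with a median of -1.81, where 9.76% of all probes passed as lower. Examples were the steroid dehydrogenase Hsd3b5 (-8.31, well above background on 2 of 3 STAM-NON arrays), Nat8 (-3.33), Keg1 (-2.47), Ugt2b1 (-2.27), Cyp7b1 (-2.01) and Cyp2d9 (-1.84). In STAM-INS 2 fell, Nat8 (-3.92) and Cyp2d9 (-1.87), and 1 rose, with a median of -0.99, where 8.72% of all probes passed as lower. The riser was Moxd1, not well above background in Normal and at least 11.8-fold higher in STAM-INS (adjusted p = 0.0120, limma). The list's median relative to Normal was -2.36, -0.53 and -1.63 in STAM-NON and -1.10, -1.54 and -0.36 in STAM-INS, and in STAM-NON its lowest array was replicate 1, where Cyp4a12a was lowest on replicate 3.

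Of 11 tested genes of the growth hormone and androgen receptor pathway, 3 fell in STAM-NON and 2 in STAM-INS against Normal, and 0 rose. Over all probes, 9.76% and 8.72% passed as lower. The growth hormone receptor Ghr fell by 1.30 and its target Igf1 by 0.64 in STAM-NON (adjusted p = 0.0163 and 0.0165, limma), and Igf1 fell by 0.47 in STAM-INS. Between STAM-INS and STAM-NON 10 of 11 were higher in STAM-INS and none passed, where 45.1% of all probes were lower. Of 12 tested female-biased genes, 10 had a higher mean in STAM-NON and 8 in STAM-INS than in Normal, with medians of 0.91 and 0.83. The medians over all probes were -0.13 and -0.09, and 63.2% and 59.6% of all probes were lower. By the adjusted test, 0 rose and 1 fell in STAM-NON, and 1 rose and 1 fell in STAM-INS. Over all probes, 16.1% and 13.9% passed in either direction. The gene that fell was Cyp3a41b (-2.28 and -2.87), and the riser was Sult1e1, at least 5.92-fold higher than in Normal, where it was not well above background.

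Cyp4a10 and Cyp4a14 are known to oscillate over the day in mouse liver. The circadian clock genes separated STAM-INS from both other groups. In STAM-INS against STAM-NON 1 of 14 tested clock genes rose and 4 fell, where 0.0913% of all probes passed. Arntl rose by 2.69, and Per3, Dbp and Tef fell by 3.22, 2.82 and 1.37 (adjusted p = 0.0162, 0.0194, 0.0210 and 0.0284, limma), but Per3 was well above background on only 1 of 3 STAM-INS arrays, so the size of its fall is uncertain. For Ciart, which no STAM-INS array measured well above background, the level there was at least 6.82-fold lower. Against Normal, 3 rose and 8 fell in STAM-INS, where 13.9% of all probes passed in either direction. STAM-NON replicate 3, low in Cyp4a10, had Dbp at 5.51 and Arntl at -1.21, beside 5.98 and 6.12 and beside -1.90 and -1.69 on the other STAM-NON arrays, and 2.30 to 3.42 and 0.83 to 1.24 in STAM-INS. The times of sampling are not given in the sources used here, and the part of the clock genes in the Cyp4a values was not tested.

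**Figure D4:**
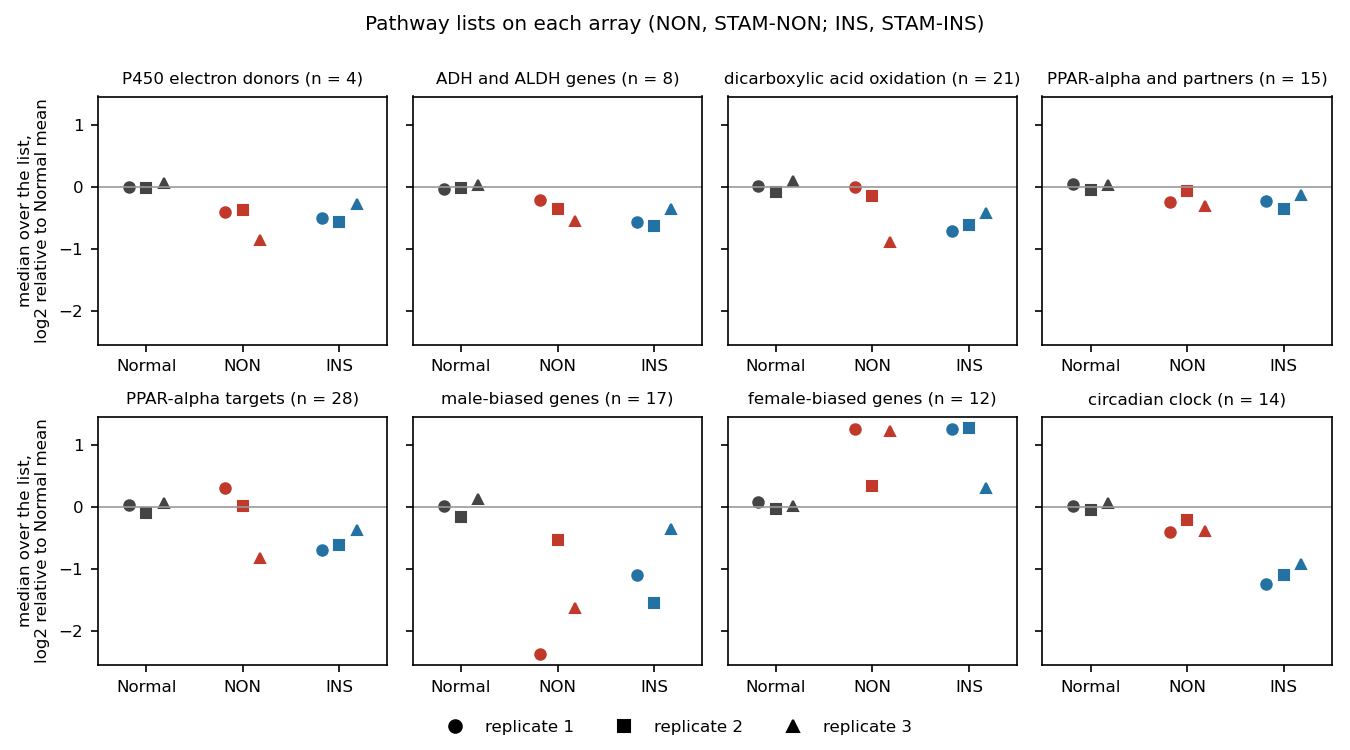
Median over each gene list on each array, as log2 difference from the Normal mean; n is the number of tested genes, and symbols mark replicate numbers. PPAR-alpha targets and genes of dicarboxylic acid oxidation are lowest on STAM-NON replicate 3 and on the STAM-INS arrays. Clock genes are lowest on the 3 STAM-INS arrays.

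Liver and other cell type markers were checked beside these values. The summed signal of 11 hepatocyte markers, each well above background on all 9 arrays, was 7180 to 7390 in Normal, 4980 to 6750 in STAM-NON and 6660 to 7650 in STAM-INS, in units of the array's 75th percentile. For 10 pericentral hepatocyte markers, which mark the zone where Cyp4a enzymes are strongest, it was 1240 to 1320 in Normal and 476 to 971 and 476 to 870 in the STAM groups. STAM-NON replicate 3 and STAM-INS replicate 2, the lowest for Cyp4a12a, had the low value of 476. For 8 periportal markers the ranges were 1870 to 2040, 1030 to 1660 and 1360 to 1600, and the same arrays were the lowest of their STAM groups.

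Macrophage markers (10, all detected in every group) summed to 104 to 154 in Normal, 204 to 353 in STAM-NON and 171 to 402 in STAM-INS, and stellate cell and fibroblast markers (10) to 74.1 to 84.1, 90.2 to 149 and 70.6 to 88.5. Neutrophil markers summed to 7.99 to 8.76 in Normal, with 4 of 9 on no array well above background, to 9.84 to 204 in STAM-NON and to 10.9 to 29.0 in STAM-INS, and the highest was STAM-NON replicate 3. Fetal and tumour markers (7) summed to 2.22 to 3.0, 35.7 to 77.9 and 30.7 to 114. Lymphocyte (36.0 to 38.3, 20.2 to 43.2 and 25.8 to 41.1), endothelial (74.4 to 83.1, 59.1 to 84.2 and 40.6 to 78.5), biliary epithelial (1.72 to 2.99, 3.76 to 9.52 and 3.73 to 5.52) and adipose markers (2.89 to 3.56, 8.33 to 45.0 and 5.75 to 24.5) are given in the same order. Kidney and pancreas markers, from tissues that also express Cyp4 genes or are damaged in the model, summed to at most 1.34 and 0.827 on any array. The part of these cell types in the Cyp4 values was not tested.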

How the data were processed

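Liver RNA of 9 mice was labelled with Cy3 and hybridised to SurePrint G3 Mouse 8 x 60K arrays, and the deposited values are spot intensities that the authors extracted with Agilent Feature Extraction 11.5.1.1, per the submitters' processing notes. Processed intensity was log2 transformed and centred on each array's 75th percentile over all 59305 non-control spots, spots flagged as outliers were set to missing, and spots of a probe were averaged. Probes were named through RefSeq accessions (27656 of 55681). A probe was tested if well above background on all arrays of at least 1 group and measured on all 9 arrays, which removed the probes with a missing value. The remaining 26278 were fitted with limma 3.58.1 (R 4.3.3, all 3 groups in 1 fit, 6 residual degrees of freedom), with Benjamini-Hochberg adjustment over all of them and a threshold of 0.05. The spread between 3 mice per group limits the precision. Within-array ratios were tested by exact permutation. The study's methods give no normalisation or test for the arrays; the t-test stated for its other data (the methods' t-test) was run as an alternative. The fit was tested on simulated data. Some list genes are not reported here.

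The members and gene lists were chosen with earlier results of these data known. Named genes were all members, the list genes past the threshold (at most 6 by size per list and comparison, or up to 3 where none passed) and the 5 genes most like Cyp4a14, Cyp4a12a and Cyp4f14. Other backgrounds, scalings, filters, fits, blocks and each array left out were tried. The background-corrected alternative (normexp, offset 50) used the median spot signal in place of the mean signal, which the files used here do not have.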

Additional observations from a re-analysis of the deposited data

How the results depend on the processing

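The member counts depended on the processing, and 3 mice per group and the dimness of Cyp4f40, Per3, Ciart and Moxd1 on some arrays limit them further. Called in STAM-NON against Normal (2 of 13) and in STAM-INS against Normal (3 of 13), they were 4 and 4 with normexp, 1 and 1 with the 75th percentile over detected probes or with a 2-fold minimum added, 1 and 0 with quantile normalisation or spike-in centring, 3 and 4 with median centring, 0 and 0 without the filter on dim probes or with the slide row as a block, 4 and 3 with probes well above background on all arrays or with a trended robust variance, 1 and 12 with only the 2 groups compared or the methods' t-test unadjusted, and 0 and 7 with that test after Benjamini-Hochberg. STAM-INS against STAM-NON stayed at 0 in all of these. Leaving out each array in turn gave 0 to 5, 0 to 6 and 0 to 12 for STAM-NON against Normal, STAM-INS against STAM-NON and STAM-INS against Normal. Over all probes, the same fits gave 874 to 6185, 10 to 57 and 1172 to 4495 in that order. The 6 and the 12 came without STAM-NON replicate 3, and 0 and 0 against Normal came without any 1 Normal array.

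Replicate numbers did not pair the samples (r of same-numbered deviations between -0.29 and 0.15). With the replicate block, 1, 0 and 0 members were called in the 3 comparisons in that order, and 2016, 6 and 1872 of all probes, against 4220, 24 and 3647. Over all probes, no filter gave 250, 7 and 572, the row block 15, 13 and 2157, and the 2-group fits 2180, 8 and 5194. The methods' t-test gave 30, 1 and 2828 after adjustment, and 7534, 1498 and 8811 unadjusted. Spike-in centring called 1501 higher and 710 lower in STAM-INS against Normal, where 1355 and 2292 were reported. The slide as a block was not run, since it coincides with Normal against STAM. The slide row was run, but STAM-NON lay wholly in 1 row and Normal wholly in the other, which limits what its counts can show.

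Of the member differences under alternatives, 771 kept direction and, where a test was run (none within slide row 1), side of the threshold, 55 passed newly, 62 no longer passed and 22 turned sign. STAM-NON minus Normal turned for Cyp4a14 with quantile normalisation (0.027) and spike-in centring (0.040). Over the arrays left out in turn it ranged from -0.57 to 0.23 for Cyp4a14, from -1.08 to 0.19, -1.14 to 0.11 and -0.98 to 0.28 for the Cyp4a10 probes and from -1.27 to 0.080 and -1.04 to 0.19 for Cyp4a31 probes, above 0 only without STAM-NON replicate 3. STAM-INS minus STAM-NON turned for Cyp4a12a and Cyp4a12b with the row block (0.23 and 0.22). That block gives the same values as the comparison within row 1, which rests on STAM-INS replicate 1. Over arrays left out, STAM-INS minus STAM-NON ranged from -0.95 to 0.76 and -0.95 to 0.77 for these genes. These were above 0 without STAM-NON replicate 1 or 2 or STAM-INS replicate 2. It ranged from -0.62 to 0.23 for Cyp4v3, above 0 without the same arrays, and from -0.32 to 0.089 for Cyp4f15, above 0 without STAM-NON replicate 2. The cause was not tested.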
